A study of Mus musculus with 9 samples.

Results

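The vascular endothelial growth factor (VEGF) system was examined here as 10 genes of the 23747 in the deposited tables. They were picked by gene name: the ligands Vegfa, Vegfb, Vegfc, Vegfd and Pgf, the receptors Flt1, Kdr and Flt4, and the co-receptors Nrp1 and Nrp2. The tables come from single-nucleus RNA sequencing (sNuc-seq) of hearts from 9 C57BL/6 mice, 8 weeks old, in 3 groups of 3, each library from a separate animal. Every mouse was gavaged for 7 days before surgery, the sham and I/R groups with vehicle and the SBP group with Shexiang Baoxin Pill (MUSKARDIA). In the I/R and SBP groups the left anterior descending coronary artery was ligated for 30 minutes and reopened for 24 hours. In sham mice the needle was passed and nothing was ligated. Tissue was taken from below the level of the ligature, and no group received the pill without ligation.

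VEGF ligands are secreted dimers that act on receptor tyrosine kinases carried mainly by endothelial cells. VEGF-A binds Flt1 and Kdr, VEGF-B and placental growth factor bind Flt1, and VEGF-C and VEGF-D act mainly through Flt4 on lymphatic vessels. Kdr carries most of the signal for endothelial growth and permeability, Flt1 binds ligand tightly with weak kinase output, and the neuropilins Nrp1 and Nrp2 hold VEGF and class 3 semaphorins beside these receptors. In the heart, cardiomyocytes are a known source of VEGF-A and VEGF-B for the capillaries that lie between them, and low oxygen is a known inducer of Vegfa.

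The promoters of the 6 members whose transcript passed the test in at least 1 comparison are shown here, because these are the members that moved. Each is the RefSeq sequence from 250 bases before to 50 bases after the transcription start in the GRCm38.p6 build, written 5′ to 3′ on the strand of the gene. Capitals mark the core of the hypoxia response element, ACGTG or GCGTG, found on either strand, so that a match on the other strand reads CACGT or CACGC.
Vegfa promoter, chr17:46032328-46032627, minus strand: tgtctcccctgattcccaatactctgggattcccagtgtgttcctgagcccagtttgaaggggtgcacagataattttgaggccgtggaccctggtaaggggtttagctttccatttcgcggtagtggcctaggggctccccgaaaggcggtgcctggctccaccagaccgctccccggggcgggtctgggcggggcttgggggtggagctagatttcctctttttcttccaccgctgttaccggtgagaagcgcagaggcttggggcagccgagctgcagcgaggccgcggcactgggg
Vegfb promoter, chr19:6987602-6987901, minus strand: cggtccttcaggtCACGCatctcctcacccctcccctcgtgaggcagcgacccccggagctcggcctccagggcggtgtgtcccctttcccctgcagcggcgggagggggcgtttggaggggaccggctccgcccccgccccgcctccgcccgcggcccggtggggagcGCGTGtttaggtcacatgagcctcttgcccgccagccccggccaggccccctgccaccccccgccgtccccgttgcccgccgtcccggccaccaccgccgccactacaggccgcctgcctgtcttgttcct
Vegfd promoter, chrX:164373272-164373571, plus strand: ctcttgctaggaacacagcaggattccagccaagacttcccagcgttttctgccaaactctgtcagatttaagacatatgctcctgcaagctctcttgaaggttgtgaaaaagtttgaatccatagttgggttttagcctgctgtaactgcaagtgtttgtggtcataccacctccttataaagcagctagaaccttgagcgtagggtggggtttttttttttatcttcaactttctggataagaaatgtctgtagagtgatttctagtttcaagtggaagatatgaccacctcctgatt
Pgf promoter, chr12:85177264-85177563, minus strand: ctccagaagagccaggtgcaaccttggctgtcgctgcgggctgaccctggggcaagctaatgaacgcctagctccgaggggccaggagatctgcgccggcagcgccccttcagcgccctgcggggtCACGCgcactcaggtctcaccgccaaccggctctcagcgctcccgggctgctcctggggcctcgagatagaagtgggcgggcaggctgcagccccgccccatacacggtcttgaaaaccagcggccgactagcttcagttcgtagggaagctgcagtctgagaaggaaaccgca
Flt1 promoter, chr5:147725962-147726261, minus strand: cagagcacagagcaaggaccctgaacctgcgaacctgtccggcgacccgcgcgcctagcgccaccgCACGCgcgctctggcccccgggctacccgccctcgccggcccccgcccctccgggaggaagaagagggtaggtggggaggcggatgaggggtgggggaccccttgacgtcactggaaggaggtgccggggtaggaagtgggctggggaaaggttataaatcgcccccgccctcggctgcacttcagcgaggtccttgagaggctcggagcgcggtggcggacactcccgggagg
Nrp2 promoter, chr1:62703067-62703366, plus strand: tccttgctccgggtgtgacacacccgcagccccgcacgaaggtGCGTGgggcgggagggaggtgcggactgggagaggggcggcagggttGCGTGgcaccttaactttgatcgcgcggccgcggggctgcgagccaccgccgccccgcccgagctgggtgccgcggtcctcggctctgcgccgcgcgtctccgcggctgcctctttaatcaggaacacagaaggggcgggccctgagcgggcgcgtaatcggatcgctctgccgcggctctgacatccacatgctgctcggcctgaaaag
This core was found in 14380 of 32851 RefSeq mouse promoters of the same length, or 43.8%. Among the 6 shown, the Vegfb and Nrp2 promoters held 2 matches, the Pgf and Flt1 promoters 1, and the Vegfa and Vegfd promoters none in this window. RefSeq lists a further Vegfa start and a further Pgf start, not printed, and the window at that other Vegfa start held 2 matches. Kdr also held 2 matches, Nrp1 held 1, and Vegfc and Flt4 held none. The Vegfd window had a GC content of 42.0%, against 62.0% to 75.3% for the other 5 shown and a median of 52.7% over all promoters. A match is a run of letters and says nothing of binding.

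The files held 49171 nuclei, 4576 to 6418 per mouse, with 10329520 to 18205985 unique molecular identifiers (UMIs, 1 per captured transcript) per mouse and a median of 1540 to 2031 per nucleus. Nuclei were clustered without the 10 members and named from marker genes that also left them out. Clusters were named cardiomyocyte-like, endothelial-like, fibroblast-like, myeloid-like, T cell-like, B cell-like, smooth muscle and pericyte-like or Schwann-like, and endothelial nuclei were split again into capillary-like, endocardial-like, arterial-like and lymphatic-like. The ending is left out in what follows. Further endothelial clusters of 141 and 104 nuclei stayed unnamed and count in no subtype, and no cluster was named venous. The cluster of 141 nuclei, with Lsamp and Cgnl1 raised, scored best as endocardial, and that of 104 as capillary. UMIs were summed per mouse and type and are given as CPM, the UMIs of a gene relative to all UMIs of that sum, scaled between the mice of a type. The cardiomyocyte nuclei of the groups lay in different clusters. The cluster that held 1236, 1377 and 1329 nuclei of the sham mice held 846, 1 and 47 of the I/R mice and 5, 212 and 159 of the SBP mice. The first I/R mouse therefore stood apart from the other I/R mice, and calls between I/R and sham that were lost without it are named below.

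Vegfa, which encodes the main angiogenic ligand (GRCm38, chr17:46016993-46032369), was highest in cardiomyocytes, at 619.6 ± 172.2 CPM (SD, n = 9 mice). The order below that was T cell (100.1 CPM), fibroblast (93.89), endothelial (68.91), B cell (64.86) and myeloid (33.46). Cardiomyocytes lay above T cells in 9 of 9 mice, by 2.94 on the log2(CPM + 1) scale (exact sign-flip permutation test over mice, adjusted p = 0.0136, from the smallest p that 9 mice allow, 0.00391). T cells lay above fibroblasts in 3 of 9 mice and could not be ordered against them (adjusted p = 0.556, exact permutation test). Few Vegfa UMIs stood behind the T and B cell levels, 79 and 26 over all mice. Fibroblasts lay above endothelial nuclei in 8 of 9 mice (adjusted p = 0.0284, exact permutation test). Among endothelial subtypes, Vegfa was highest in arterial nuclei, at 142.5 ± 62.83 CPM, and these exceeded endocardial nuclei in 9 of 9 mice by 0.99 on the log2 scale. In sham mice the 6 cardiomyocyte markers summed to 7129 to 9009 CPM in endothelial nuclei, against 43210 to 55610 in cardiomyocytes. The part of cardiomyocyte RNA in the Vegfa levels of the other types was not tested.

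Vegfb (chr19:6982473-6987651), whose protein binds Flt1, had a less clear order. Its means ran from 17.25 CPM in fibroblasts to 42.31 ± 8.1 in cardiomyocytes and 43.34 ± 30.44 in B cells, where 7 mice gave a value and few UMIs stood behind it. None of the 5 steps between neighbours in its order of types passed the test. Pairs further apart were not tested, but the cardiomyocyte level, at least 32.61 CPM in each mouse, lay above every fibroblast value and every myeloid value, and cardiomyocytes came first when the deposited values were averaged over nuclei instead. Vegfc (chr8:54077606-54187096), the lymphangiogenic ligand, was highest in endothelial nuclei at 289.7 ± 105.9 CPM, above fibroblasts at 187.1 ± 58.75 in 8 of 9 mice (adjusted p = 0.0202, exact permutation test). Within the endothelium it formed a clear series. It stood at 1290 ± 477.1 CPM in arterial, 376.3 ± 148 in capillary, 94.05 ± 18.15 in endocardial and 28.84 ± 25 in lymphatic nuclei, and each step was in the same direction in 9 of 9 mice (adjusted p = 0.0136 each, exact permutation test).

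Vegfd (chrX:164373378-164402650), the other Flt4 ligand, was highest in fibroblasts at 88.2 ± 27.93 CPM and endothelial nuclei at 79.78 ± 17.45, which could not be ordered (adjusted p = 0.683, exact permutation test). Among endothelial subtypes it was highest in endocardial nuclei, at 180.8 ± 48.38 CPM, above arterial nuclei at 54.03 ± 22.53 in 9 of 9 mice, while capillary nuclei held 14.49 ± 5.69. Pgf (chr12:85166635-85177790), placental growth factor, was highest in fibroblasts at 86.65 ± 36.66 CPM, above endothelial nuclei at 18.78 ± 7.69 in 9 of 9 mice. Among endothelial subtypes it was highest in lymphatic nuclei, at 95.38 ± 51.7 CPM, above arterial nuclei at 18.79 ± 15.75 in 8 of 9 mice (adjusted p = 0.0202, exact permutation test). The ligands thus had different highest types in these nuclei: cardiomyocytes for Vegfa, endothelial nuclei for Vegfc, and fibroblasts for Pgf.

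All 3 receptors were highest in endothelial nuclei and split there by subtype. Flt1 (chr5:147561604-147726011) stood at 1821 ± 464.6 CPM in endothelial nuclei, against 34.94 to 189.1 in the other 5 types. It ran from 2826 ± 743.4 CPM in capillary through 1949 ± 321.3 in arterial and 930.3 ± 240.3 in endocardial to 157.5 ± 76.36 in lymphatic nuclei, and all 3 steps passed the test. Kdr (chr5:75932827-75978458) stood at 225.7 ± 41.49 CPM in endothelial nuclei and at 342 ± 42.67 in capillary, 280.6 ± 54.64 in lymphatic, 165.6 ± 67.99 in arterial and 68.59 ± 17.33 in endocardial nuclei, again with all 3 steps past the threshold. The step from capillary to lymphatic turned round when the deposited values were averaged over nuclei.

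Flt4 (chr11:49609263-49652739), the receptor for VEGF-C and VEGF-D, was concentrated in lymphatic endothelium. Lymphatic nuclei held 1067 ± 121.3 CPM and capillary nuclei 67.98 ± 5.72, a difference of 3.95 ± 0.15 on the log2(CPM + 1) scale (SD, n = 9 mice, exact permutation test, adjusted p = 0.0136). Neither the step from capillary to arterial nuclei nor that from arterial to endocardial passed the test, while capillary nuclei lay above endocardial nuclei in each of the 9 mice, a pair that was not tested. Among the other types ranked, Flt4 went from 1.97 CPM in cardiomyocytes to 19.59 in B cells.

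Nrp1 (chr8:128358604-128503363) had a mean of at least 258.7 CPM in each of the 6 types ranked. Free RNA from other cells can add UMIs to any nucleus, and its part in the lower levels, those of T and B cells among them, was not tested. It stood at 1252 ± 253.2 CPM in endothelial, 886.9 ± 208.2 in myeloid and 572.8 ± 211.2 in cardiomyocyte nuclei, and both steps held in 9 of 9 mice. Within the endothelium Nrp1 was lowest in lymphatic nuclei (202.7 ± 116.3 CPM) and highest in endocardial (1518 ± 368.1) and capillary (1317 ± 323.3), which could not be ordered (adjusted p = 0.184, exact permutation test). Nrp2 (chr1:62703285-62818695) differed from this in the place of lymphatic nuclei. It was highest in lymphatic nuclei (1181 ± 281.3 CPM), then capillary (552.2 ± 106), endocardial (214.8 ± 29.59) and arterial (87.37 ± 39.69), and every step held in 9 of 9 mice. Between types Nrp2 stood at 457.4 ± 80.57 CPM in endothelial and 228.4 ± 78.28 in myeloid nuclei, against 10.99 to 77.66 in the other 4 ranked. Pooled over mice, the unranked Schwann nuclei had 129.466 CPM of Nrp2, from 22 UMIs. Smooth muscle and pericyte nuclei, also unranked, had 82.315 CPM of Nrp2 and 630.414 CPM of Nrp1, pooled the same way. Of all 80 neighbouring steps over the 10 members, 39 passed an adjusted p of at most 0.05: 19 of 50 between types and 20 of 30 between endothelial subtypes. The first in the order by averaged deposited values was the same type for 9 of 10 members and the same subtype for 8 of 10. Mir1903 lies inside Nrp1 on the same strand and shares 80 exonic bases with it, and no other member shared exonic bases with another gene in the annotation.

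**Figure D1:**
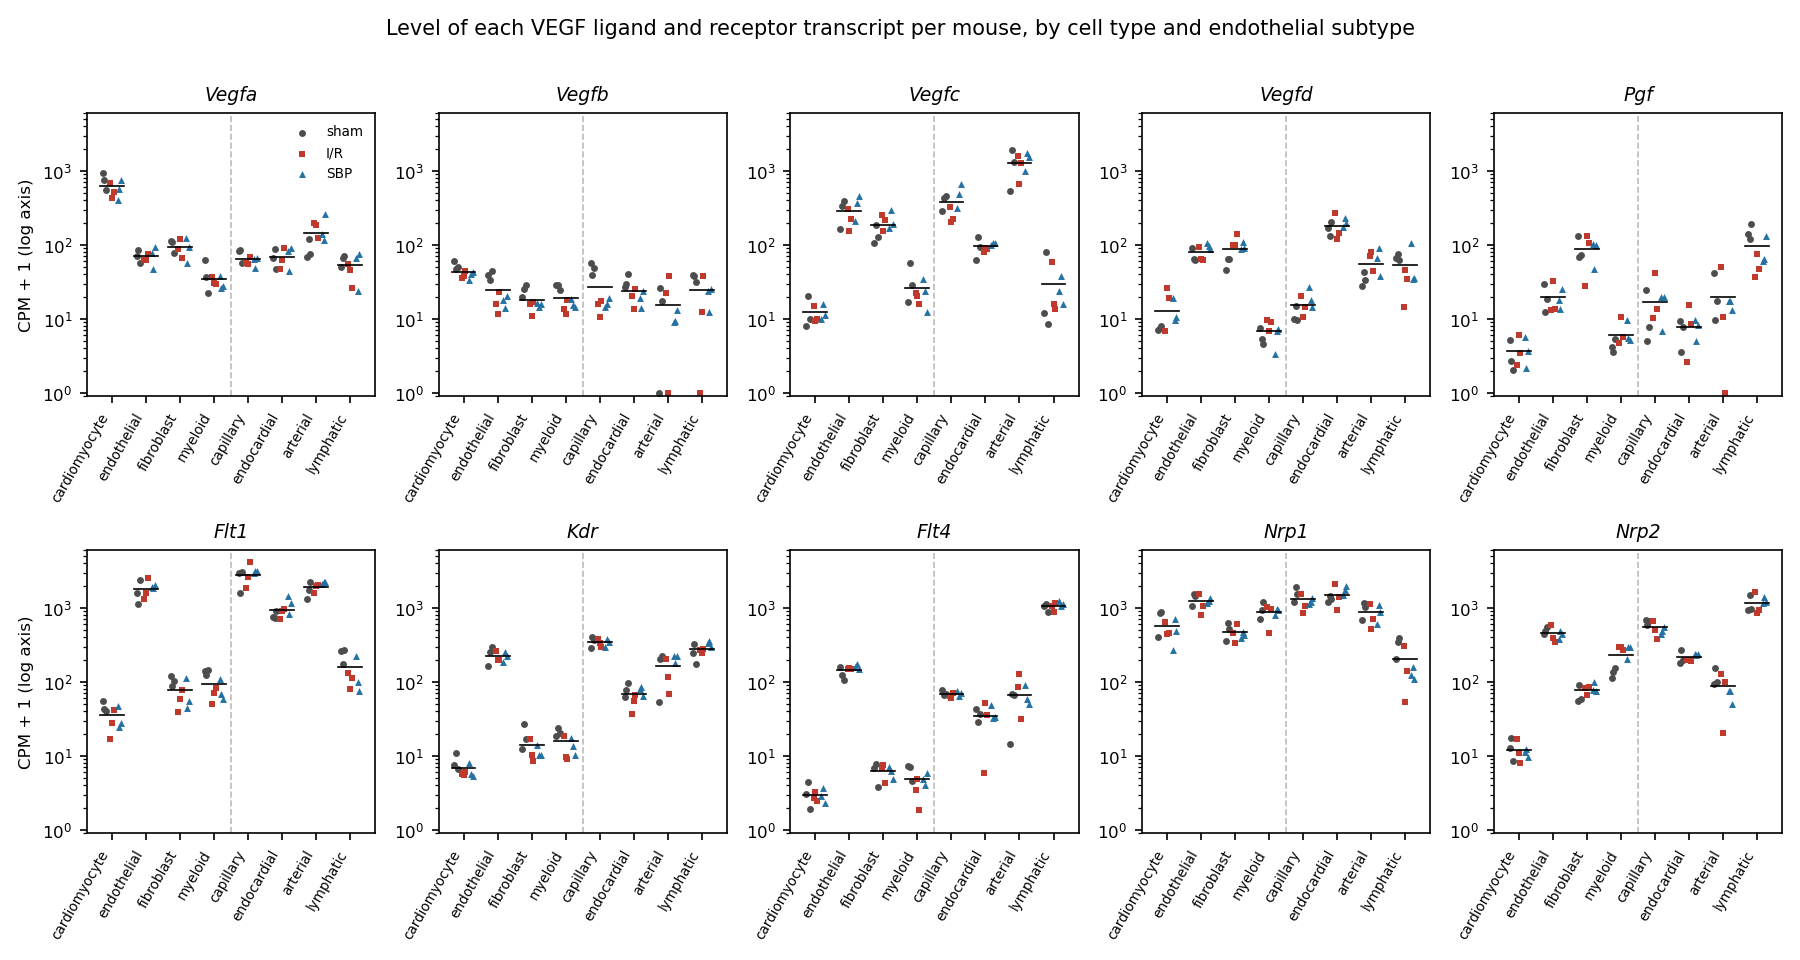
Level of each member per mouse (CPM + 1, log axis) in 4 cell types and, right of the dashed line, 4 endothelial subtypes, with circles for sham, squares for I/R and triangles for SBP and a bar at the mean of 9 mice. Flt4 and Nrp2 peak in lymphatic nuclei, Flt1 in capillary nuclei, Vegfc in arterial nuclei, and Vegfa in cardiomyocytes at a mean of 619.6 CPM.

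Over 90 sums of a type or subtype and a mouse, the genes most alike in pattern were named for each member by Pearson's correlation of log2(CPM + 1). These sums share libraries and depth, endothelial sums overlap their subtypes, and the values are a description. For Vegfa the closest was Shld1 (r = 0.815), for Vegfb Ndufb6 (0.71), a subunit of mitochondrial complex I, and for Vegfc the chemokine gene Cxcl12 (0.836). For Vegfd it was Cped1 (0.812) and for Pgf the leptin receptor gene Lepr (0.745). Flt1 was closest to Kitl (0.924), Kdr to the ephrin receptor gene Ephb4 (0.896), Flt4 to Kank3 (0.89), Nrp1 to the junctional adhesion gene Jam2 (0.726) and Nrp2 to Smad1 (0.854), a transducer of bone morphogenetic protein signals. The next closest were Gm20619 and Gm12381 for Vegfa, Klhl42 and Phb for Vegfb, Apbb2 and Trpm3 for Vegfc, Nfia and Pkd1 for Vegfd, and Kcnn3 and Nox4 for Pgf. For the receptors they were Adgrl4 and Adipor2 for Flt1, Kank3 and Tie1 for Kdr, Ecscr and Galnt18 for Flt4, Gdpd5 and Il15 for Nrp1, and Slfn3 and Calcrl for Nrp2. Tie1 was also one of the endothelial markers.

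The comparison of I/R with sham asks how the VEGF system stands 24 hours after reperfusion. In sums over the whole heart, Vegfa and Vegfb fell and Vegfd rose. Calls came from limma on log2(CPM + 1) and needed an absolute log2 fold change over 0.25 with p no higher than 0.05 after Benjamini-Hochberg adjustment over all genes tested. Of 10 members 3 were called, where 11.5% of the 16045 genes tested were called, and the median log2 fold change was -0.25 over the members and -0.03 over all genes tested. In such sums fewer cells of a type and less RNA per cell cannot be told apart. With library size alone for scaling, the median over all genes moved to 0.09, the direction of each of the 3 members stayed the same, and Vegfa was no longer called (log2 fold change -0.74, limma adjusted p = 0.0612).

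Vegfa in the whole heart was 559.1, 427.8 and 370.8 CPM in the sham mice and 268.4, 200.3 and 272.2 in the I/R mice. Every I/R mouse was below every sham mouse, and the means were 452.6 ± 96.53 and 247 ± 40.49 CPM (SD, n = 3 each). The log2 fold change was -0.86 (SE 0.21, limma adjusted p = 0.0308), while an exact permutation test gave 0.1, which is as low as 3 against 3 can go. Without 1 library the call was lost for sham 1 (adjusted p = 0.104), sham 2 (0.0684), sham 3 (0.0553) and I/R 2 (0.107), and without I/R 1 it stood at 0.0374. It was also lost with the replicate number as a block and with the mean of the deposited values. In cardiomyocytes alone, where Vegfa was highest, the sham mice had 935.5, 751.7 and 551.2 CPM and the I/R mice 679.2, 428 and 518.1. These groups overlapped, and the log2 fold change of -0.45 (SE 0.27) was not called (limma adjusted p = 0.478). Cardiomyocyte nuclei numbered 1326, 1424 and 1480 in the sham mice and 1072, 944 and 1242 in the I/R mice.

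No member was called in cardiomyocytes by limma, where 0.814% of the 12901 genes tested were called. At an unadjusted p under 0.05 there were 3 of 10, against 14.1% of all genes: Vegfb (log2 fold change -0.42), Vegfd (1.02) and Flt1 (-0.76). Without I/R 1, the mouse that stood apart, Vegfd was called higher in cardiomyocytes (log2 fold change 1.59, limma adjusted p = 0.0145). Markers of other types were higher in the same nuclei. The 6 fibroblast markers summed to 263.1 to 267.5 CPM in sham and 321 to 408.8 in I/R, with 2 called higher, and the 10 myeloid markers to 42.94 to 50.5 and 73.09 to 154.6 CPM, with 1 called higher. Their part in the Vegfd value was not tested. In arterial nuclei Vegfa pointed the other way, with 66.73, 119.1 and 73.8 CPM in sham and 197.3, 185 and 122.9 in I/R. The groups did not overlap, but the log2 fold change of 0.97 (SE 0.38) was not called (limma adjusted p = 0.229). There 0 of 6 members tested were called by limma, against 1.71% of 3217 genes, and 1 had an unadjusted p under 0.05, against 13.6%. In endocardial nuclei 0 of 9 were called by limma, against 0.699% of 9587 genes, and 2 had an unadjusted p under 0.05, against 12.6%. In endothelial, fibroblast and myeloid nuclei the log2 fold change of Vegfa lay between -0.19 and -0.07, and none was called.

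Vegfb moved the same way in every type tested. It was lower in I/R in each of the 7 sums of nuclei where it could be tested, the groups did not overlap in any of the 7, and it was called in 5. These sums are of the same mice, the whole heart holds every type and endothelial nuclei hold their subtypes, so that they are not independent. The share of all genes called in the 5 ran from 3.25% in endothelial to 17.4% in myeloid nuclei, and the share without overlap was not counted. Vegfb was not called in cardiomyocytes or in endocardial nuclei (31.2 ± 6.65 CPM in sham and 18.86 ± 6.07 in I/R). Arterial and lymphatic nuclei had too few UMIs for a test, with means of 13.97 and 35.5 CPM in sham and 19.34 and 16.22 in I/R. The largest change was in capillary nuclei, which had 55.87, 38.67 and 47.78 CPM in the sham mice and 15.11, 9.63 and 16.36 in the I/R mice. Behind these values stood 38, 58 and 77 UMIs and 18, 9 and 22 UMIs. The log2 fold change was -1.74 (SE 0.27, limma adjusted p = 0.00299), and over 20 alternative settings it stayed called with an adjusted p of at most 0.0195 (0.00237 without I/R 1). Vegfb was the only called member of 10 there, where 4.62% of 10316 genes were called.

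In the whole heart Vegfb was 46.95, 39.2 and 44.93 CPM in sham and 20.37, 19.46 and 29.57 in I/R (log2 fold change -0.91 with SE 0.17, limma adjusted p = 0.0124). It lost its call only without sham 3 (adjusted p = 0.0544) among the 20 settings, and stood at 0.0222 without I/R 1. Over all endothelial nuclei it was 37.55, 33 and 43.92 CPM in sham and 15.08, 10.48 and 21.87 in I/R. The log2 fold change was -1.27 (SE 0.26, limma adjusted p = 0.0209), the only call among 10 members where 3.25% of 12207 genes were called. That call was lost without sham 1 (0.0536), sham 2 (0.0662), sham 3 (0.0867) or I/R 2 (0.0762), and stood at 0.0345 without I/R 1.

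In myeloid nuclei Vegfb was 27.25, 27.44 and 23.25 CPM in sham and 12.73, 10.76 and 17.25 in I/R (log2 fold change -0.91 with SE 0.24, limma adjusted p = 0.0227). The call was lost without sham 1 (0.0618), sham 2 (0.0739), I/R 1 (0.0542) or I/R 2 (0.0878), and with the mean of the deposited values. Fibroblasts had 18.93, 24.58 and 27.6 CPM in sham and 14.72, 9.88 and 15.77 in I/R, a log2 fold change of -0.78 (SE 0.22, limma adjusted p = 0.0409). This was the least stable of the Vegfb calls, held in 9 of 21 settings, and it was lost without sham 2 (0.0904), sham 3 (0.172), I/R 1 (0.054), I/R 2 (0.157) or any of the 3 SBP mice (0.0565 to 0.0608). It was also lost with library size alone, without the low-count filter, with only the 6 samples compared, with marker scores and with the mean of the deposited values. In cardiomyocytes Vegfb was 58.82, 45.6 and 48.71 CPM in sham and 34.31, 36.42 and 42.85 in I/R. The groups did not overlap and the log2 fold change was -0.42 (SE 0.17), not called (limma adjusted p = 0.299).

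Cardiomyocyte transcripts moved in the same direction in these nuclei. The 6 cardiomyocyte markers summed to between 9847 and 10220 CPM in capillary nuclei of sham mice, between 3546 and 5605 in I/R and between 3235 and 4321 in SBP mice, and 6 of 6 were called lower in I/R. In fibroblasts the range was 4636 to 5456 CPM in sham and 1491 to 2307 in I/R, and in myeloid nuclei 5746 to 6835 and 1796 to 2999, again with 6 of 6 called lower. Over all endothelial nuclei 5 of 6 were called lower. Cardiomyocytes were among the types with the highest Vegfb, and the part of cardiomyocyte RNA in the Vegfb result was not tested.

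Vegfd moved the other way, and in fibroblasts. There it was 45.07, 62.54 and 63.58 CPM in the sham mice and 99.94, 99.4 and 137.9 in the I/R mice, with 100, 173 and 182 UMIs against 421, 352 and 577. Every I/R mouse was above every sham mouse, the means were 57.06 ± 10.4 and 112.4 ± 22.06 CPM, and the log2 fold change was 0.97 (SE 0.19, limma adjusted p = 0.00593). It was called in all 21 alternative settings, with an adjusted p of at most 0.0358 (0.00654 without I/R 1). Of 10 members 2 were called in fibroblasts, Vegfd higher and Vegfb lower, where 11.5% of the 13076 genes tested were called. The fibroblasts' own 6 markers summed to 4072 to 6222 CPM in sham and 6939 to 8047 in I/R, with 2 called higher.

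Fibroblast nuclei of the groups lay in different clusters as well. A cluster led by the matrix gene Tnc held 2, 4 and 5 nuclei of the sham mice and 458, 390 and 142 of the I/R mice. In the larger fibroblast cluster without Tnc, a setting added after the data were seen, Vegfd was 43.43, 60.05 and 61.66 CPM in sham and 80.2, 93.07 and 144.8 in I/R. The log2 fold change there was 0.90 (SE 0.22, limma adjusted p = 0.0431), where 4.07% of 12278 genes were called. The Tnc cluster itself had 136.8, 116.2 and 113.5 CPM in I/R, and too few sham nuclei for a value. Vegfb in the cluster without Tnc was no longer called (log2 fold change -0.57, limma adjusted p = 0.189).

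In the whole heart Vegfd was 31.06, 30.95 and 26.78 CPM in sham and 36.91, 44.9 and 52.65 in I/R, without overlap (log2 fold change 0.57 with SE 0.16, limma adjusted p = 0.044). This call was the weakest of the 3 in the whole heart. It was lost without sham 1 (0.0976), sham 2 (0.0837), sham 3 (0.144), I/R 2 (0.117) or I/R 3 (0.0545), and also without SBP 1 (0.0525), SBP 2 (0.0553) or SBP 3 (0.0699), while it stood at 0.0215 without I/R 1. It was lost as well without the low-count filter, with only the 6 samples compared, with the replicate number as a block, with the mean of the deposited values and with neither trend nor robust fitting, 13 of 20 settings in all. In lymphatic nuclei the Vegfd values were 65.98, 75.04 and 61.01 CPM in sham and 13.49, 45.12 and 33.24 in I/R, lower without overlap and not called (log2 fold change -1.26, limma adjusted p = 0.193).

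Vegfc was not called in any of the 8 sums where it was tested. Its log2 fold changes ran from -0.65 to 0.60, and the groups overlapped in all 8. In fibroblasts it was 103.7, 184 and 125.1 CPM in sham and 249, 155.3 and 214.8 in I/R (log2 fold change 0.60 with SE 0.26, limma adjusted p = 0.177). The Tnc cluster had 311.9, 260.8 and 470.3 CPM of Vegfc in the I/R mice, and the cluster without Tnc 224.7, 104 and 156.4.

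Pgf fell in lymphatic endothelium, its highest endothelial subtype. The sham mice had 137.5, 117.2 and 190.6 CPM and the I/R mice 35.96, 75.2 and 45.7, from 25, 25 and 25 UMIs and 8, 20 and 11 UMIs. Every I/R mouse was below every sham mouse, and the log2 fold change was -1.53 (SE 0.36, limma adjusted p = 0.018). It was the only call among 8 members tested, where 3.02% of 5058 genes were called, and the median log2 fold change of the 8 was -0.87 against 0.07 over all genes tested. The call was lost without sham 3 (0.0979) and without I/R 1 (0.0606), with the deposited values averaged over nuclei (0.167) and with neither trend nor robust fitting. The 6 cardiomyocyte markers were called lower in lymphatic nuclei too, with sums of 5636 to 6894 CPM for sham and 2399 to 2900 for I/R. Cardiomyocytes themselves held 2.695 ± 1.565 CPM of Pgf, the lowest of the types ranked. The part of cardiomyocyte RNA in the Pgf result was not tested.

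Pgf in fibroblasts varied between mice more than between groups. It was 131.6, 66.88 and 71.27 CPM in sham, 26.59, 132.4 and 106.6 in I/R and 101.1, 45.73 and 97.66 in SBP mice. Each group held a mouse below 70 CPM and a mouse above 100, and the log2 fold change of I/R against sham was -0.24 (SE 0.57, limma adjusted p = 0.848).

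**Figure D2:**
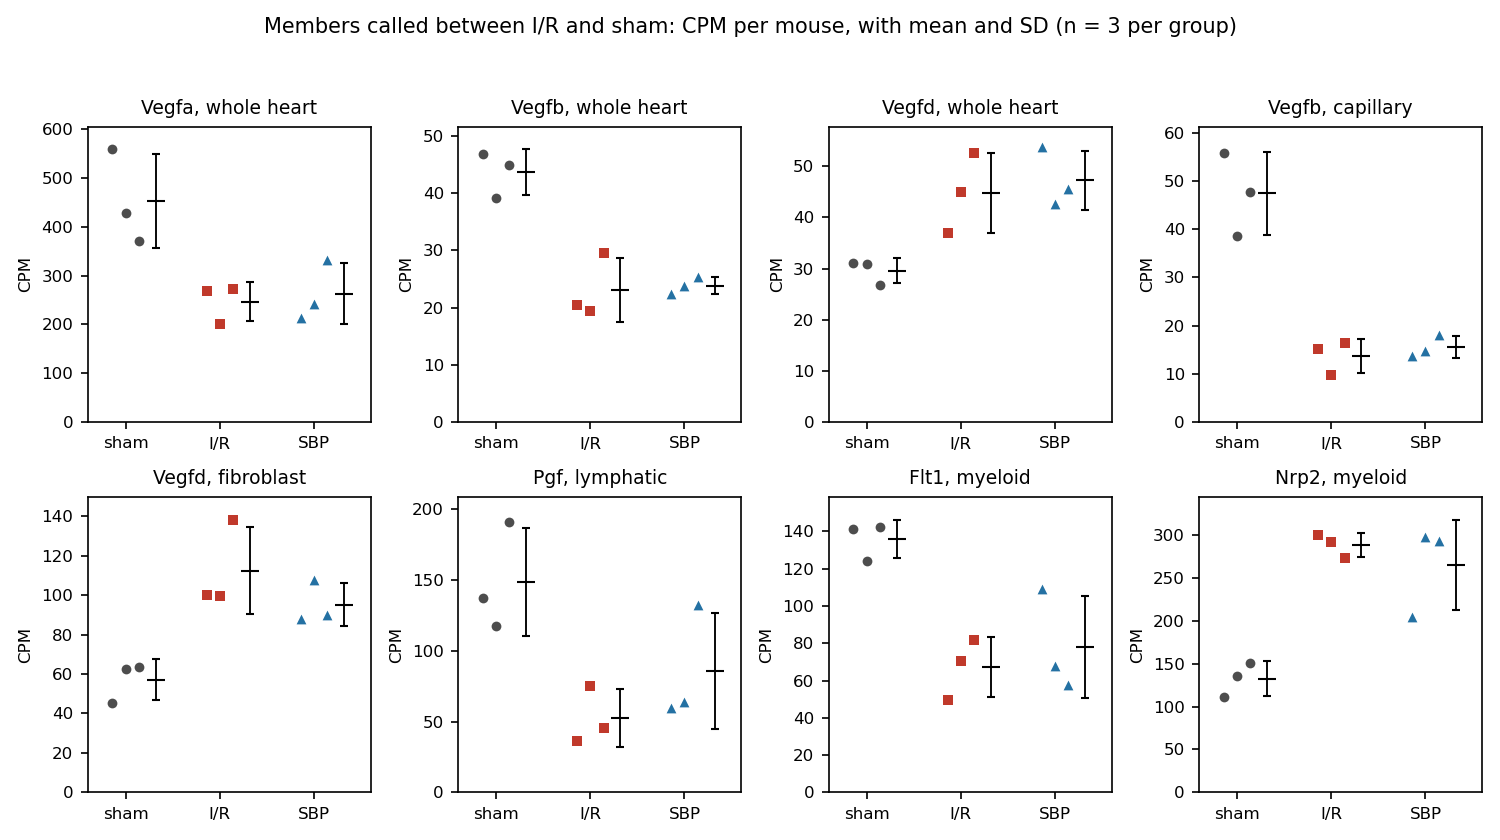
CPM per mouse in sham (circles), I/R (squares) and SBP (triangles) for 8 pairs of a member and a set of nuclei called between I/R and sham, with the mean and SD of 3 mice beside the points and axes from 0. I/R and sham do not overlap in any panel. In the Pgf panel 1 SBP mouse lies at 132.6 CPM, among the sham mice.

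Of the receptors, Flt1 was called in 1 sum of nuclei and Kdr and Flt4 in none. In myeloid nuclei Flt1 was 141.1, 124.3 and 142.4 CPM in the sham mice and 49.66, 70.43 and 81.48 in the I/R mice. The groups were well apart, with means of 135.9 ± 10.07 and 67.19 ± 16.16 CPM and a log2 fold change of -1.03 (SE 0.24, limma adjusted p = 0.0114). Flt1 is known to be expressed by monocytes and macrophages besides endothelium. Here Flt1 UMIs were found in 13.158% of myeloid nuclei and 75.433% of endothelial nuclei. The share was 13.357% in fibroblasts, 14.267% in cardiomyocytes, 12.005% in T cells and 14.627% in B cells. Of 9 sums tested, Flt1 was lower in I/R in 5, fibroblasts (log2 fold change -0.87) and cardiomyocytes (-0.76) among them, and higher in 4. The part of free RNA from other cells in the myeloid value was not tested. The myeloid call was lost in 1 of 21 settings, where types came from marker scores per nucleus (limma adjusted p = 0.0777). Without I/R 1 the limma adjusted p was 0.0286. The 6 endothelial markers summed to 213.6 to 274.4 CPM in the myeloid nuclei of sham mice and 129.3 to 193.6 in I/R mice, with 1 of 6 called lower. Their part in the Flt1 result was not tested.

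In endothelial nuclei, where Flt1 was far higher, it was 1573, 1146 and 2403 CPM in sham and 1337, 1569 and 2540 in I/R, a log2 fold change of 0.10 (SE 0.28, limma adjusted p = 0.89). Lymphatic nuclei had 258.4, 173.5 and 266.9 CPM of Flt1 in sham and 130.4, 78.96 and 112.2 in I/R, lower without overlap and short of the threshold (log2 fold change -1.12 with SE 0.34, limma adjusted p = 0.0765). It was called in 6 of 20 alternative settings, among them those without SBP 1 or SBP 3, with an adjusted p from 0.0119 to 0.342 over the 20. Fibroblasts also had lower Flt1 without overlap, and that change of -0.87 was not called (limma adjusted p = 0.13). It was called in 1 of 21 settings, without SBP 1 (limma adjusted p = 0.042), and stood at 0.715 with marker scores. Kdr was tested in 9 sums with log2 fold changes from -0.83 in myeloid to 0.13 in lymphatic nuclei and adjusted p from 0.0955 to 0.914. Without I/R 1, Kdr was called lower in myeloid nuclei (log2 fold change -1.16, limma adjusted p = 0.026), and without sham 1 it was called lower in the whole heart (limma adjusted p = 0.0473). In capillary nuclei, where Kdr was highest, it was 282.3, 398.8 and 371.7 CPM in sham and 379.5, 337.2 and 294.4 in I/R, with a log2 fold change of -0.05 (SE 0.17). Flt4 in lymphatic nuclei was 1072, 1140 and 877 CPM in sham and 1047, 876 and 1159 in I/R, and its log2 fold change was -0.004 (SE 0.17).

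Nrp2 rose in myeloid nuclei. It was 110.6, 135.5 and 151.1 CPM in the sham mice and 299.4, 291.8 and 272.9 in the I/R mice, with 69, 158 and 208 UMIs against 1435, 841 and 633. All I/R mice stood well above all sham mice, and the log2 fold change was 1.13 (SE 0.18, limma adjusted p = 0.00138). The call held in all 21 alternatives that keep the whole type, with an adjusted p of at most 0.00919 (0.00245 without I/R 1). In myeloid nuclei 3 of 7 members tested were called, Nrp2 higher and Vegfb and Flt1 lower, where 17.4% of 10922 genes were called. The 6 fibroblast markers summed to 617.2 to 826 CPM in myeloid nuclei of sham mice and 808 to 1090 in I/R mice, with 2 called higher, and their part in the Nrp2 result was not tested. Nrp1 in the same nuclei was 705.3, 926 and 1188 CPM in sham and 1015, 461.4 and 977.8 in I/R, overlapping and not called (log2 fold change -0.25, limma adjusted p = 0.582).

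The myeloid nuclei of the groups were of different clusters. A cluster led by Gpnmb and Arg1 held 7, 12 and 11 nuclei of the sham mice, 1667, 884 and 447 of the I/R mice and 275, 1069 and 301 of the SBP mice. Its Nrp2 level was 326.6, 284.8 and 360.7 CPM in I/R and 286, 354.8 and 425 in SBP mice, with too few sham nuclei for a value. In the cluster led by Cd163, a marker of resident-type macrophages, Nrp2 was 120.3, 145 and 160.3 CPM in sham and 157.7, 280.2 and 177.3 in I/R. Within that cluster, a setting added after the data were seen, the groups overlapped and the log2 fold change of 0.49 (SE 0.23) was not called (limma adjusted p = 0.316). Limma called no member there, where 1.29% of 9076 genes were called, and Vegfb, Flt1 and Kdr, 3 of 7 tested, had an unadjusted p under 0.05, as did 16.1% of all genes. Flt1 within it was 162.9, 119 and 138.1 CPM in sham and 57.93, 57 and 91.03 in I/R, a change of the same size as over all myeloid nuclei (log2 fold change -1.04 with SE 0.25) that missed the threshold (limma adjusted p = 0.0613). Nrp2 in another cluster, led by Flt3 and Top2a, was 56.79, 105.9 and 31.84 CPM in sham and 318.9, 394.2 and 278.5 in I/R. That cluster held 29, 60 and 35 nuclei of the sham mice, so few UMIs stood behind the sham values, and the change within it was not tested.

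**Figure D3:**
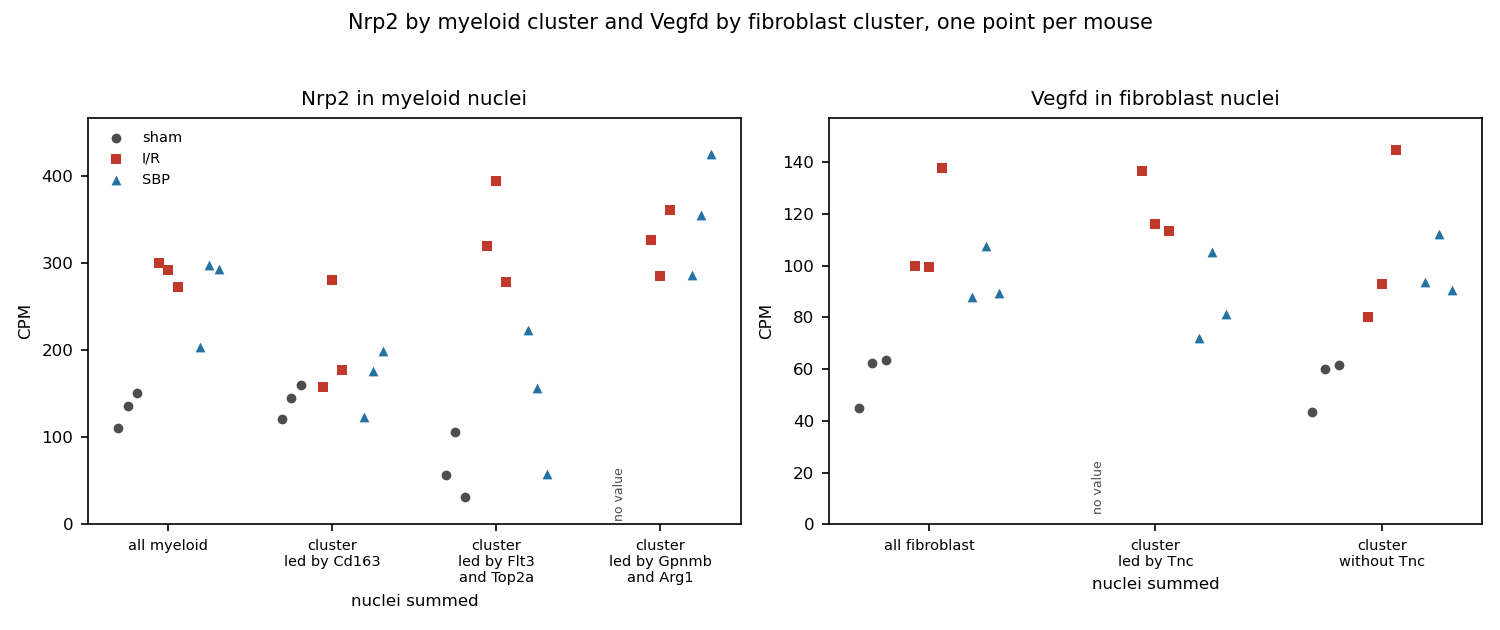
CPM per mouse of Nrp2 over all myeloid nuclei and in 3 of their clusters, and of Vegfd over all fibroblasts and in 2 of their clusters, with circles for sham, squares for I/R and triangles for SBP. Nrp2 of the cluster led by Cd163 overlaps between sham and I/R, and Vegfd of the fibroblast cluster without Tnc does not. "No value" marks sums of under 20 nuclei.

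The difference between types was tested directly, as the change within a mouse between a pair of types. Over 276 such tests of members, 2 passed, both for Nrp2 between endothelial and myeloid nuclei. Endothelial Nrp2 was 446.7, 492.7 and 547.7 CPM in sham and 591.2, 389.8 and 345.5 in I/R. The log2 fold change of I/R against sham was lower by 1.33 in endothelial than in myeloid nuclei (coded endothelial minus myeloid, -1.33 with SE 0.21, limma adjusted p = 0.0134), where 3.5% of 10405 genes differed. That call was lost without sham 2 (0.0562), sham 3 (0.0515) or I/R 2 (0.0689), and stood at 0.0114 without I/R 1. For SBP against sham the difference was -1.18 (SE 0.21, limma adjusted p = 0.0235), where 2.49% differed, and it was lost without any 1 of the 3 sham mice (0.0709 to 0.0776) or the 3 SBP mice (0.0502 to 0.103). Both calls were also lost without the low-count filter and with marker scores. The myeloid nuclei of the groups were of different clusters, as given above, and the difference was not tested within a cluster. No difference for Vegfb, Vegfd, Flt1 or Pgf passed between any of the pairs tested, so that their calls in 1 type and not in another do not show that the types differ.

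Nrp1 was not called in any of these 9 sums. It was also the only member with enough UMIs for a test in T cells, where the log2 fold change was 0.06 (SE 0.43, limma adjusted p = 0.982). In lymphatic nuclei it was 203.4, 342.4 and 388.9 CPM in sham and 305.7, 52.64 and 141.3 in I/R (log2 fold change -1.18 with SE 0.54, limma adjusted p = 0.336). Without I/R 1, which had the highest I/R value, Nrp1 was called lower in lymphatic (log2 fold change -1.81, limma adjusted p = 0.00434) and capillary nuclei (-0.68, limma adjusted p = 0.0468). The lymphatic value was called in 4 of 20 settings. The others were without the low-count filter, without the highest-scoring doublets and with the mean of the deposited values.

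SBP against sham compares treated, injured hearts with the same sham mice, so its values share those samples with the comparison above. The members called were fewer and were all among those called between I/R and sham. In the whole heart 1 of 10 was called, where 3.35% of genes were called. Vegfb was 22.31, 23.86 and 25.33 CPM in the SBP mice (log2 fold change -0.85 with SE 0.17, limma adjusted p = 0.0339), and that call was lost without sham 1 (0.112), sham 3 (0.128), SBP 1 (0.119), SBP 2 (0.0924) or SBP 3 (0.0785), and with the mean of the deposited values. Vegfa was 213.7, 242.8 and 332.7 CPM in the SBP mice, below every sham mouse and not called (log2 fold change -0.79, limma adjusted p = 0.0703). Vegfd was 53.7, 42.6 and 45.55 CPM, above every sham mouse and just short of a call (log2 fold change 0.66 with SE 0.16, limma adjusted p = 0.0516), and it was called in 6 of 20 settings. Cardiomyocytes had no call, at a background of 0.124%, with 1 of 10 members at an unadjusted p under 0.05 by limma, against 13.3% of all genes.

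Capillary Vegfb was 13.67, 14.77 and 18.04 CPM in the SBP mice, a log2 fold change of -1.55 against sham (SE 0.27, limma adjusted p = 0.00707), and it held in all 20 settings (adjusted p of at most 0.0481). It was the only call of 10 in capillary nuclei, where 2.93% of genes were called. Endothelial Vegfb was 16.91, 13.11 and 19.64 CPM (log2 fold change -1.17 with SE 0.26, limma adjusted p = 0.0363), the only call of 10 at a background of 2.29%. It was lost without sham 1 (0.0871), sham 2 (0.112), sham 3 (0.158), SBP 1 (0.118), SBP 2 (0.112) or SBP 3 (0.076), and with marker scores or neither trend nor robust fitting. By limma no member was called in endocardial (0 of 9, background 0.647%), arterial (0 of 6, background 0.777%) or lymphatic nuclei (0 of 8, background 1.62%). At an unadjusted p under 0.05 there were 2 of 9 in endocardial nuclei, against 11.3% of all genes, 1 of 6 in arterial nuclei, against 12.2%, and 3 of 8 in lymphatic nuclei, against 13%. Lymphatic Nrp1 (log2 fold change -1.22) was called lower in 4 of 20 alternative settings, and lymphatic Flt1 in 1 of 20.

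Fibroblast Vegfd was 87.97, 107.7 and 89.65 CPM in the SBP mice, above every sham mouse (log2 fold change 0.74 with SE 0.19, limma adjusted p = 0.0364), the only call of 10 where 6.03% of genes were called. The call was lost without sham 1 (0.126), sham 3 (0.0637), SBP 1 (0.0798), SBP 2 (0.167) or SBP 3 (0.0819), and with marker scores, the mean of the deposited values or neither trend nor robust fitting. It was lost too in the cluster without Tnc, where Vegfd was 93.58, 112.4 and 90.78 CPM in the SBP mice, still above every sham mouse (log2 fold change 0.84 with SE 0.22, limma adjusted p = 0.094, background 1.01%). Myeloid Nrp2 was 203.9, 297.2 and 292.9 CPM in the SBP mice (log2 fold change 0.99 with SE 0.18, limma adjusted p = 0.00379) and held in all 21 settings that keep the whole type, with an adjusted p of at most 0.0239. It was lost within the cluster led by Cd163, where it was 123.4, 176 and 199.2 CPM in the SBP mice and overlapped with sham (log2 fold change 0.21 with SE 0.23, limma adjusted p = 0.764, background 1.47%). Myeloid Flt1 was 109.1, 67.69 and 57.44 CPM (log2 fold change -0.84 with SE 0.24, limma adjusted p = 0.0358), and it was lost without sham 1 (0.102), sham 2 (0.0696), sham 3 (0.0985), SBP 2 (0.126) or SBP 3 (0.145), and also without the low-count filter, with the replicate number as a block, with marker scores, with neither trend nor robust fitting and within the cluster led by Cd163 (log2 fold change -0.93, limma adjusted p = 0.0863). These 2 were the calls among 7 members in myeloid nuclei, where 12.6% of genes were called.

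SBP against I/R asks whether the pretreatment changed the system in injured hearts. No member was called by limma in any type or subtype: 0 of 80 tested values passed in the 9 sums shown, 3 had an unadjusted p under 0.05, against 4.06% of all values tested in these sums, and the smallest adjusted p was 0.961. Over all genes the share called was 0% in the whole heart, cardiomyocyte, endothelial, fibroblast, myeloid, capillary, endocardial and arterial sums and 0.0198% in lymphatic nuclei. The 80 log2 fold changes ran from -0.36 to 0.93 with a median SE of 0.27, and a p that misses the threshold does not show that the groups were alike. Nrp1 in T cells, outside these 80, was not called either (log2 fold change -0.74, limma adjusted p = 0.965).

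The lowest unadjusted p belonged to Vegfc in capillary nuclei. It was 324.1, 201.2 and 222.3 CPM in the I/R mice and 309.2, 489.3 and 665.6 in the SBP mice. The groups overlapped by 1 mouse, and the log2 fold change was 0.93 (SE 0.28, limma adjusted p = 0.985). Vegfc lay higher in SBP than in I/R in 8 of 8 sums tested and Flt1 in 9 of 9, sums that are nested and come from the same 6 mice, and neither was called in any of them. The other values with an unadjusted p under 0.05 were Vegfd in endothelial nuclei (log2 fold change 0.43, limma adjusted p = 0.961) and Kdr in endocardial nuclei (0.57, limma adjusted p = 0.987). Kdr in endocardial nuclei was 35.91, 55.01 and 65.07 CPM in I/R and 79.89, 83.31 and 64.6 in SBP mice.

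**Figure D4:**
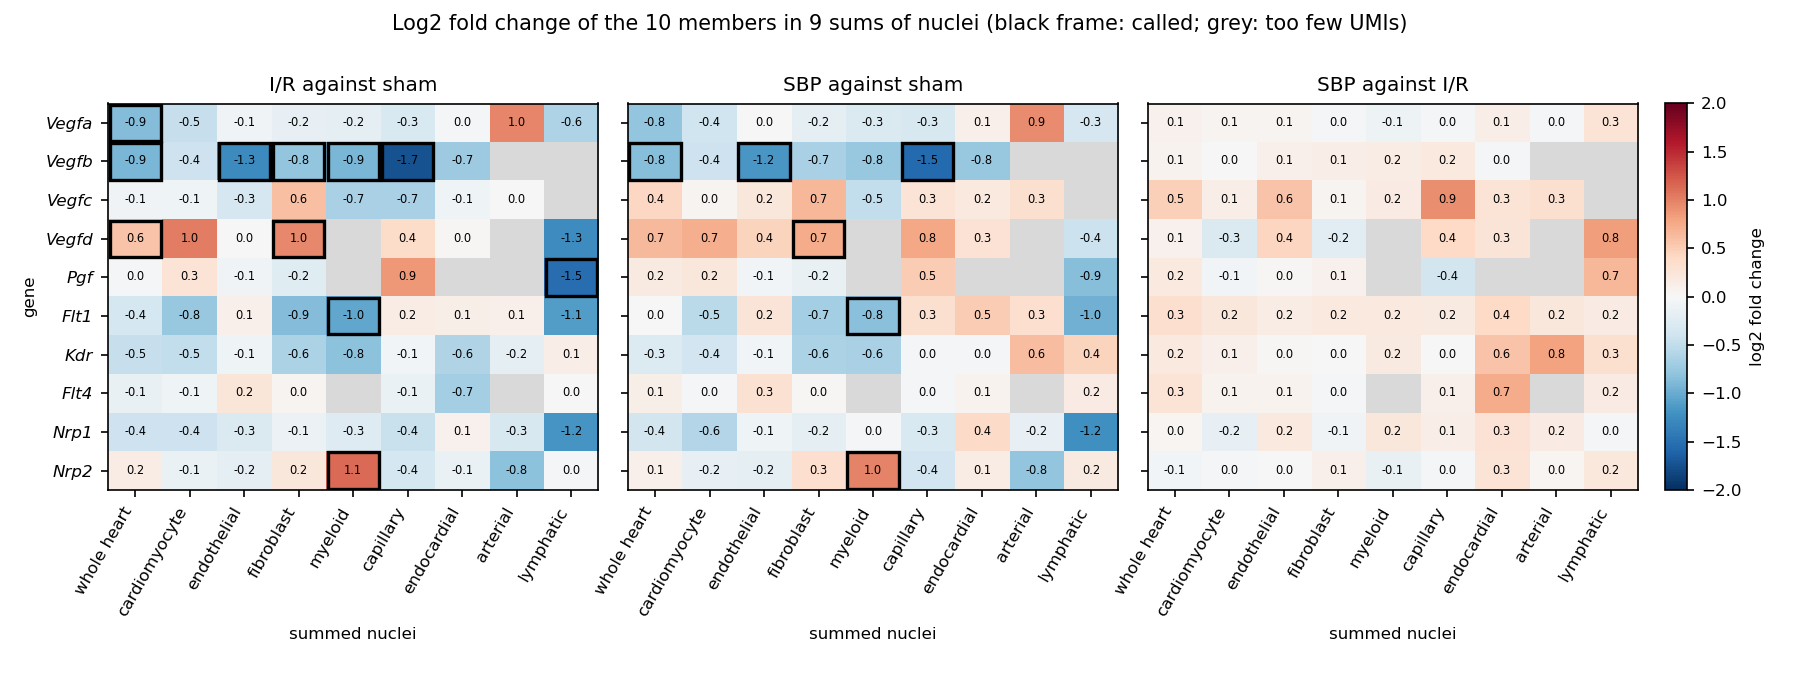
Log2 fold change of the 10 members (vertical) in 9 sums of nuclei (horizontal) for the 3 comparisons, blue for lower and red for higher, with a black frame around called values and grey where too few UMIs were present for a test. Vegfb is blue in 7 of 7 sums tested against sham, and no value of SBP against I/R is framed.

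Genes that act with the members were taken from 5 lists: receptor signalling (34 genes), receptor partners and regulators (13), endothelial genes that respond to VEGF or mark sprouting (19), oxygen sensing, regulators of Vegfa and VEGF-C processing (14), and other neuropilin ligands and co-receptors (12). Their values here are for I/R against sham unless another comparison is named. Of 696 values of list genes tested over 10 sums, 41 were called by limma, while the share of all genes called ran from 0.699% in endocardial to 17.4% in myeloid nuclei. At an unadjusted p under 0.05 there were 142 of the 696, against 20.9% of all values tested in these sums. Of the 41 calls, 31 were also called without I/R 1, a setting added after the data were seen. The 10 lost were Ptpn1, Myo6 and Itgav in the whole heart, Cxcr4 in fibroblasts and in myeloid nuclei, and 5 that are described below. Of the signalling list, Fyn, a Src-family kinase, fell in the whole heart (log2 fold change -0.49, limma adjusted p = 0.0312), the 1 call among 34, where 11.5% of all genes were called, and none of 33 was called by limma in endothelial nuclei, with 1 at an unadjusted p under 0.05, against 17.8% of all genes. In myeloid nuclei 4 of 32 signalling genes were called, with Gab1 higher and Prkca, Fyn and Yes1 lower, where 17.4% of all genes were called, and Yes1 was not called without I/R 1 (limma adjusted p = 0.142). The median log2 fold change of the signalling list was -0.07 in myeloid nuclei, against 0.09 over all genes tested, and 0.04 in endothelial nuclei, against -0.02.

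Among partners and neuropilin ligands, the endothelial calls were Itgav, an integrin subunit, and Sema3a, a semaphorin that binds Nrp1. Sema3a rose in endothelial nuclei from 107.7 ± 42.8 to 361.8 ± 133 CPM (log2 fold change 1.77 with SE 0.33, limma adjusted p = 0.0209). The lymphatic subtype gave its largest level, with 822.1 ± 54.8 CPM for sham, 2802 ± 740 for I/R and 2295 ± 50.9 for SBP mice (I/R against sham 1.73 with SE 0.18, limma adjusted p = 2.05e-06). Both genes stayed called in endothelial nuclei without I/R 1 (limma adjusted p = 0.0128 for Sema3a and 0.037 for Itgav), at a background of 3.25%. Itgav rose in endothelial (0.95), fibroblast (0.72) and lymphatic nuclei (0.80), and the lymphatic call was lost without I/R 1 (limma adjusted p = 0.0952). Markers of other types were higher in these nuclei as well. In endothelial nuclei the 10 myeloid markers summed to 155.7 to 213.5 CPM in sham and 348.4 to 534.3 in I/R, and the 6 fibroblast markers to 862.6 to 1134 and 1160 to 1557, with 2 of each called higher. In fibroblasts the myeloid markers summed to 97.25 to 119.9 CPM in sham and 173.5 to 334.1 in I/R, with 2 called higher. In lymphatic nuclei the fibroblast markers summed to 459.6 to 564.3 CPM in sham and 680.5 to 947.3 in I/R, with 2 called higher. Their part in the values of Itgav, Sema3a and the other list genes was not tested. In capillary nuclei Itgb3 was the 1 call of 12 partners, where 4.62% of all genes were called, at 7.68 ± 5.19 CPM in sham and 53.52 ± 38.5 in I/R (log2 fold change 2.603, limma adjusted p = 0.0273, and 0.00411 without I/R 1). The semaphorin receptor gene Plxna4 fell in myeloid nuclei from 456.8 ± 63.4 to 103 ± 11.1 CPM (-2.13, limma adjusted p = 2.55e-05), while Plxna1 rose from 6.83 ± 3.14 to 30.25 ± 8.75 CPM (2.06, limma adjusted p = 0.00636).

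Of the oxygen-sensing list, Hif1a, the oxygen-regulated transcription factor gene, rose in fibroblasts from 72.52 ± 1.6 to 164 ± 42.8 CPM (log2 fold change 1.13 with SE 0.18, limma adjusted p = 0.00232) and in myeloid nuclei from 78.38 ± 11.1 to 247.4 ± 109 CPM (1.57 with SE 0.26, limma adjusted p = 0.00214). These were the 1 call of 14 in fibroblasts (background 11.5%) and, with Arnt, also higher, the 2 of 12 in myeloid nuclei (background 17.4%). In lymphatic nuclei Arnt (0.83, limma adjusted p = 0.0486) rose and Ppargc1a (-1.34, limma adjusted p = 0.0492) fell, 2 of 6 at a background of 3.02%, and neither was called without I/R 1 (limma adjusted p = 0.0557 and 0.134). Limma called no gene of that list in the whole heart, cardiomyocytes or endothelial nuclei. At an unadjusted p under 0.05 there were 2 of 14 in the whole heart, against 28.5% of all genes, 3 of 13 in cardiomyocytes, against 14.1%, and 3 of 14 in endothelial nuclei, against 17.8%. Of the endothelial response list, 0 of 16 were called by limma in endothelial nuclei, with 3 at an unadjusted p under 0.05 against 17.8% of all genes, and Dll4 and Ets1 were the 2 of 18 called in the whole heart, both lower, where 11.5% of all genes were called. Nr4a1, an immediate early gene, was the 1 call of 8 in arterial nuclei, where 1.71% of all genes were called. It stood at 5.57 ± 4.82 CPM in sham and 172 ± 165 in I/R (log2 fold change 4.61 with SE 1.11, limma adjusted p = 0.04). The arterial sums of the sham mice held 68634, 114957 and 121666 UMIs over all genes, so few Nr4a1 UMIs stood behind the sham mean. The call was lost without I/R 1 (limma adjusted p = 0.0693). Further calls of that list were in fibroblasts (2 higher, 2 lower of 16, where 11.5% of all genes were called) and myeloid nuclei (1 higher, 4 lower of 9, where 17.4% were called). In myeloid nuclei these included Pdgfb, a platelet-derived growth factor, which fell from 97.03 ± 4.92 to 17.04 ± 7.27 CPM (-2.52, limma adjusted p = 0.00031). As given above, the myeloid and the fibroblast nuclei of sham and I/R mice lay in different clusters. The part of that in the values of Pdgfb, Hif1a, Plxna4, Plxna1 and the other list genes was not tested. When SBP was set against I/R, limma called 0 of 696 tested values of the 5 lists, and 48 had an unadjusted p under 0.05, against 4.05% of all values tested in the same 10 sums.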

How the data were processed

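Nuclei of 9 hearts were profiled by 10x sNuc-seq. Per the submitters' processing notes, the authors used Cell Ranger 4.0, STAR, Seurat 3.2.0 and the GRCm38 build. The study's methods name other, later versions of Cell Ranger and Seurat, and which made these files was not settled. The deposited tables hold natural log values, ln(1 + 10000 x UMIs of a gene / UMIs of the nucleus), 1 table per mouse, and the authors' comparisons were not used. UMIs were recovered from these values to within 0.1 UMI of a whole number. All 9 libraries were mapped to groups by their labels. The 49171 barcodes had 48881 distinct sequences, of which 290 occurred in more than 1 library.

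A doublet caller marked 84 nuclei, 0.171%, which were removed. That share is too small for the caller to have worked, and an alternative removed the 2168 highest-scoring nuclei (4.409%). Nuclei were clustered with Scanpy 1.11.5 (2000 variable genes, 30 principal components, 20 neighbours, Leiden resolution 0.3, 14 clusters), and endothelial nuclei again at 0.15, chosen after 0.2 had split capillary nuclei by group. Sums per mouse and type of at least 20 nuclei were scaled by a trimmed mean of ratios and tested in limma 3.58.1 (R 4.3.3, trend and robust) on log2(CPM + 1), all 3 groups in 1 fit, for genes with 10 UMIs per median library in 3 samples and 15 in total. The limma group fits, and the difference between endothelial and myeloid nuclei, were run on simulated counts with known changes put in. Doublet calling, clustering, naming and the tests of levels were not tested in this way. Levels were ordered by mean CPM, and neighbours in that order were compared by exact sign-flip permutation tests over mice. Named genes were the 10 members, the 3 genes most alike in pattern, and up to 3 called genes per direction of each list. Members and lists were chosen with earlier results of these data known.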

Additional observations from a re-analysis of the deposited data

Results flagged for a closer look

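The effect on Nrp2 differed between endothelial and myeloid nuclei by a test of the difference itself. For I/R against sham the log2 fold change, coded endothelial minus myeloid, was -1.325 (SE 0.209, limma adjusted p = 0.0134, exact permutation p = 0.1, the smallest that 3 against 3 allows). For SBP against sham it was -1.178 (SE 0.209, limma adjusted p = 0.0235), with the same sham mice. Over 20 alternative settings the adjusted p reached 0.0797 and 0.103. For I/R the call was lost without sham 2 (adjusted p = 0.0562), sham 3 (0.0515) or I/R 2 (0.0689). For SBP it was lost without any 1 of the sham mice (0.0709 to 0.0776) or of the SBP mice (0.0502 to 0.103). Each call was lost as well without the low-count filter and with marker scores. The myeloid nuclei of the groups were of different clusters. Within the cluster led by Cd163, Nrp2 was not called for I/R (log2 fold change 0.49, limma adjusted p = 0.316) or SBP (0.21, limma adjusted p = 0.764) against sham. The part of the clusters in the difference was not tested.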

How the results depend on the processing

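No call reversed its direction under any alternative. Counts of called members are given here where they moved by over 1.5 times, with I/R against sham first. In the whole heart the count was 3 and became 1 with the replicate block and 1 with the mean of the deposited values, and it ranged from 0 to 3 when a library was left out. In fibroblasts 2 became 1 with library size alone, without the low-count filter, with only the 6 samples compared, with marker scores, with the mean of the deposited values and in the cluster without Tnc (1 to 2 without a library). In myeloid nuclei 3 became 0 in the cluster led by Cd163, where the log2 fold change was -1.05 for Vegfb, -1.04 for Flt1 and 0.49 for Nrp2. In lymphatic nuclei 1 became 3 without the filter, 2 with only 6 samples, 2 with the replicate block, 3 without the highest-scoring doublets and 0 with neither trend nor robust fitting (0 to 2 without a library). Without a library the count was 0 to 1 in cardiomyocytes (0 before), 0 to 1 in endothelial nuclei and 1 to 2 in capillary nuclei.

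For SBP against sham, the whole-heart count of 1 became 2 with median-of-ratios factors, 2 with library size alone, 2 with a pseudocount of 0.25, 3 with only 6 samples and 0 with the mean of the deposited values (0 to 2 without a library). The endothelial count of 1 became 0 with marker scores and 0 with neither trend nor robust fitting (0 to 1). The fibroblast count of 1 became 0 with marker scores, the mean of the deposited values, neither trend nor robust fitting, and the cluster without Tnc (0 to 1). The myeloid count of 2 became 1 without the filter, 1 with the replicate block and 0 in the cluster led by Cd163 (1 to 2). The lymphatic count of 0 became 1 without the filter and 1 with only 6 samples (0 to 1). Effects that differed between types numbered 1 for each comparison with sham. For I/R they became 4 with a pseudocount of 5, 0 without the filter, and 2 with the replicate block, marker scores or the mean of the deposited values (0 to 2 without a library). For SBP they became 2 with a pseudocount of 5, 0 without the filter, and 2 with the replicate block or marker scores (0 to 1 without a library). The causes of these moves were not tested.

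Replicate numbers did not pair the samples: same-numbered deviations correlated between -0.399 and 0.297. Marker scores give no subtypes or whole heart, and the differences between types were not run with only 6 samples. The within-cluster settings were chosen after seeing the data. Few UMIs per mouse stood behind Vegfb and Pgf in endothelial subtypes, which limits their precision.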
